A study of Homo sapiens with 2 samples.

Results

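The 10 genes CALD1, TPM1, TPM2, TAGLN, CNN3, MYL9, ACTN1, ACTN4, LCP1 and PLS3 encode proteins that bind, bundle or contract actin filaments. They were chosen by name, with earlier results of these data in view, out of 19775 genes that had a probe set of their own. All 35 probe sets whose annotation named exactly 1 of these symbols were taken. The study measured gene expression on 2 single-colour Affymetrix arrays in SW620, an established human cell line, grown in RPMI-1640, that was started from a colorectal tumour's spread to a lymph node. In 1 culture SOX2, a transcription factor of stem and progenitor cells, was knocked down by a short hairpin RNA (shRNA) delivered by lentivirus, and the other culture carried a hairpin with no target, called mock knockdown. Each group held 1 array, so no difference could be tested, and neither the hairpin sequence nor the number of clones behind a culture is given in the labels. The sample titles end in KO where the source names read knockdown, and the description field speaks of a mouse liver, which matches neither the organism nor the source name.

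Actin filaments are given their shape and their work by the proteins that coat them. Tropomyosins lie end to end along the filament, and caldesmon and calponins bind beside them and restrain or steady the access of myosin. Transgelin is a small calponin-related protein of smooth muscle and stromal cells, and the myosin regulatory light chain is the subunit whose phosphorylation switches myosin II on. Alpha-actinins tie filaments into loose, contractile bundles such as stress fibres, while plastins, also called fimbrins, pack them into tight ones such as the cores of microvilli. In the normal gut wall the contractile forms are mostly made by muscle and stroma, and plastin 2, the product of LCP1, mostly by white blood cells, although cultured carcinoma cells often make several of them.

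Each value is an intensity, the brightness of a probe set on a linear scale, and differences are given in log2 units, with the mock knockdown value subtracted from the SOX2 knockdown value. A floor was set at the median over the values of both arrays without array controls, an intensity of 68.5, or 6.10 on the log2 scale. A gene was represented by its probe set with the highest mean log2 level. A dimmer value under that floor was replaced by it for the fold, which is then a bound. Intensities of different probe sets were not compared, since each binds its target with its own efficiency. Median intensities were 69.0 (mock knockdown) and 68.1 (SOX2 knockdown), and 13609 genes reached the floor on at least 1 array. The label was checked first at SOX2, whose brightest probe set 228038_at stood at 2077 on the mock array against 20.9 after SOX2 knockdown, at least 30.3-fold lower. The other probe set of the gene above the floor, 213721_at, differed by only -1.47. Of 11 markers of colorectal epithelium 9 reached the floor after mock knockdown and 11 after SOX2 knockdown, KRT20 and CDH17 being those under it on the mock array. EPCAM, an adhesion protein of epithelial cells, stood at 8909.5 and 9898, and CDX2, a transcription factor of intestinal cells, was close to the floor at 69.2 and 116. The list was not level as deposited, with 1 of 11 at least 2-fold lower and 2 higher, beside 7.29% and 8.44% of the 13609 genes. The keratin KRT20 went from 23.2 to 10763, while VIL1, villin, which bundles actin in microvilli, went from 2063 to 867. The cadherin CDH17 went from 35.5 to 78.0, which is less than 2-fold when its mock value is raised to the floor. The summed intensity of the list was 50637 and 74142. Such sums, here and for the marker lists below, are led by the brightest probe sets and are given as a description only. The part of these genes in the differences of the 10 genes was not tested.

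All 10 genes reached the floor on at least 1 array, and they did not move as a block. On the SOX2 knockdown array CALD1, LCP1, CNN3, PLS3 and TPM2 were at least 2-fold lower, and TAGLN and ACTN1 were lower by less. TPM1 and ACTN4 were higher, neither of them by 2-fold, and MYL9 was too close to the floor for a direction to be read. The count of 5 lower members stands beside 7.29% of 13609 genes at least 2-fold lower, and the count of 0 higher members beside 8.44% at least 2-fold higher. Because the members were picked with these differences known, nothing is read from their excess. As deposited, their differences ran from -7.31 to 0.99, with a median of -1.10 against -0.0063 over all genes. As a rough yardstick within this pair of arrays, the spread of differences between probe sets of 1 gene had an SD of 0.49 over 6440 genes. This SD is not a pure measure of error, since probe sets of a gene can differ in target and brightness. It holds no variation between cultures. In RNA from a whole culture, fewer cells that make a transcript and less of it per cell cannot be told apart.

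**Figure D1:**
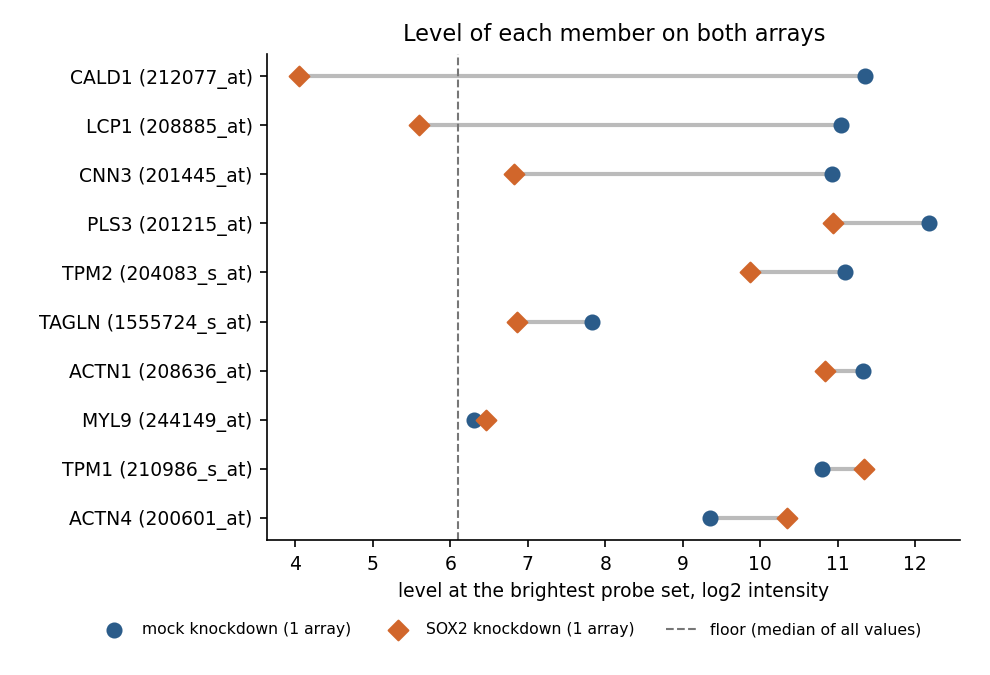
Log2 intensity (horizontal axis) of each of the 10 genes at its brightest probe set (rows, ordered by difference) on the mock knockdown array (circles) and the SOX2 knockdown array (diamonds), 1 array each, with the floor as a dashed line. CALD1 and LCP1 cross the floor, while the other rows stay above it on both arrays. MYL9 lies just over the floor on both, and CNN3 and TAGLN end not far over it. Rows should be read along, not against each other, since probe sets differ in efficiency.

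CALD1, caldesmon, fell under the floor at its brightest probe set, so its difference is a bound and takes no rank. Its brightest probe set, 212077_at, stood at 2612 on the mock array against 16.5 after SOX2 knockdown. The second value lay under the floor, so the transcript was at least 38.1-fold lower. CALD1 had 11 probe sets, of which 5 reached the floor on at least 1 array. Probe set 201616_s_at went from 337 to 19.9, at least 4.92-fold lower. Probe set 201617_x_at went from 286 to 9.04, at least 4.17-fold lower. These 3 probe sets were bright on the mock array and under the floor on the other. The remaining pair moved much less. Probe set 201615_x_at went from 227 to 105, with 46.4% of the mock value left, and 215198_s_at from 110.4 to 78.2, with 70.9% left. All 5 were lower, but the size ran from -0.50 to -7.31 as deposited. Caldesmon is made as a long smooth muscle form and a short form found in most other cells, and the files do not say which form each probe set reads. The other 6 probe sets lay under the floor on both arrays, with no order that can be read.

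LCP1, plastin 2, a bundling protein of white blood cells, likewise ended under the floor. Its only probe set, 208885_at, stood at 2108 on the mock array against 48.4 after SOX2 knockdown, at least 30.8-fold lower. No further probe set of LCP1 could be set beside it. Because LCP1 marks blood cells, 10 leukocyte genes were looked at as well. PTPRC, the common leukocyte phosphatase CD45, was under the floor on both arrays, at 16.7 and 19.9, as were CD53, HCLS1, CD3E and TYROBP. LAPTM5, a lysosomal protein of blood cells, was also lower, going from 318 to 107, while the monocyte receptor CD14 went from 43.6 to 156. CORO1A and CD79A, above the floor on both arrays, moved less, from 221 to 179 and from 123 to 116. Of the 9 leukocyte genes with a probe set, 3 reached the floor on the mock array against 4 after SOX2 knockdown. The summed intensity of the list was 908 and 758, and the part of these genes in the difference of LCP1 was not tested.

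CNN3, the acidic calponin found outside muscle, was the most even of the strongly lower genes. Probe set 201445_at stood at 1943 on the mock array against 113 after SOX2 knockdown. Both values were above the floor, so the 17.2-fold lower value is measured and no bound. Probe set 228297_at went from 726 to 47.0, at least 10.6-fold lower. The 2 probe sets differed by -4.10 and -3.95 as deposited, closer to each other than the SD of 0.49.

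In the promoter sequences at hand, the 250 bases before each transcript start were read on build GRCh38.p14, as 18 windows of 8 genes. These sequences held no window for TAGLN and MYL9, so neither gene was searched for any of the words below. Since the hairpin targets SOX2, the 6-letter words ACAAAG and ACAATG, both forms of the core that HMG-box SOX proteins bind, were searched on both strands. Also searched were GGAATG, the core word of TEAD factors, and the CArG box, the element bound by SRF, a factor that drives many contractile genes. The windows of the 3 strongly lower genes that held a SOX word are shown, together with the only 1 of the 18 windows with a CArG box, which belongs to ACTN1. Capitals mark the words found, and letters run 5′ to 3′ on the strand of the gene.
CALD1 at chr7:134711249-134711498 (plus strand): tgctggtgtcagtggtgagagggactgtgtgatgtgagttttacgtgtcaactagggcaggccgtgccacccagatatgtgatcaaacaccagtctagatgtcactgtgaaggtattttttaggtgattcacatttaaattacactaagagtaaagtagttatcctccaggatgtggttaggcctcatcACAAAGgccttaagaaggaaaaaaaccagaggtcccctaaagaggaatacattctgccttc
CALD1 at chr7:134779384-134779633 (plus strand): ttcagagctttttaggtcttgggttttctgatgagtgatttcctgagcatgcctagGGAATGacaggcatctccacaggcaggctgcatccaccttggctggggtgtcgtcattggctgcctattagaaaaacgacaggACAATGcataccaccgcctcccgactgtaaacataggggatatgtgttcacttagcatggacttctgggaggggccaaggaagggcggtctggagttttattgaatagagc
CNN3 at chr1:94925770-94926019 (minus strand): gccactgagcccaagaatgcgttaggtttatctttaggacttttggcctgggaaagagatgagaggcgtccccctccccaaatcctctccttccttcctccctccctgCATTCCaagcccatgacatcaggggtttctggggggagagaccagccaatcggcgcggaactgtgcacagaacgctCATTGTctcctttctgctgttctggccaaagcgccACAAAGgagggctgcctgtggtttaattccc
LCP1 at chr13:46182178-46182427 (minus strand): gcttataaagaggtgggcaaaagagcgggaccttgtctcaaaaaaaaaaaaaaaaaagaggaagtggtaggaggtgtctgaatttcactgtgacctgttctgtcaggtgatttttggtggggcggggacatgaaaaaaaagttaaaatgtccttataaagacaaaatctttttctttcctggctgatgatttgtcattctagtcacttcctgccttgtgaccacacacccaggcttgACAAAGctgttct
ACTN1 at chr14:68977567-68977816 (minus strand): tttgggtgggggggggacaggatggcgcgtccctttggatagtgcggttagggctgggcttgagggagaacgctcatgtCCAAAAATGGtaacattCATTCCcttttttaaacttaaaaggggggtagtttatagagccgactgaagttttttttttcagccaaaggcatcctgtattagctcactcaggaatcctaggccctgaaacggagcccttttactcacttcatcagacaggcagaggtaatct
The first CALD1 window and the LCP1 window lie before the first listed start of their gene, and the other 3 lie inside the listed span of their gene, before a later start. Counted back from the start, with -1 the base before it, ACAAAG began at -61 in the first CALD1 window, at -31 in CNN3 and at -13 in LCP1. ACAATG began at -111 in the CALD1 window shown second and, on the other strand, at -66 in CNN3. In ACTN1 the CArG box CCAAAAATGG began at -171; its pattern reads alike on both strands, and no word overlapped another. The capitals left over are GGAATG, at -194 in the CALD1 window shown second and, on the other strand, at -142 in CNN3 and -154 in ACTN1. ACAAAG stood in 3 of 18 windows, against 13.7% of all 35116 windows of equal length, and ACAATG in 2 of 18, against 9.29%. GGAATG stood in 4 of 18 against 11.9%, and the CArG box in 1 of 18 against 1.16%. In 12 of 18 windows none of the words was found. Among these windows were all those of TPM1, TPM2, ACTN4 and PLS3. The CNN3 window before its first listed start and 1 CALD1 window were among them too. The words found are matches of letters and do not show that a protein binds there.

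The other plastin of the group moved the same way by far less. PLS3, plastin 3, the form of most solid tissues, stood at 4636 on the mock array against 1958 after SOX2 knockdown at its only probe set, 201215_at. It was 2.37-fold lower and well above the floor on both arrays. The third plastin, PLS1, which bundles the core of intestinal microvilli, went from 1550.3 to 1949, a difference of 0.33. The plastins thus ran from -4.94 or lower for LCP1, taken against the floor, through -1.24 for PLS3 to 0.33 for PLS1. The difference of PLS1 was smaller than the SD between probe sets.

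The tropomyosins split. TPM2, beta-tropomyosin, stood at 2184 on the mock array against 936 after SOX2 knockdown at its brightest probe set, 204083_s_at, 2.33-fold lower. Its next probe set, 227397_at, stood at 111 and 106, which is nearly level, and 212654_at went from 74.2 to 49.7, across the floor. The lower value of TPM2 therefore rests on 1 probe set of 3. TPM1, alpha-tropomyosin, went the other way at its 3 bright probe sets. Its probe set 210986_s_at went from 1782 to 2597, 210987_x_at from 1164 to 1732 and 206116_s_at from 843 to 1073, differences of 0.54, 0.57 and 0.35. Its dim probe sets 206117_at and 238688_at differed by -0.39 and -0.04. The 3 bright probe sets are of the kinds ending in _s_at or _x_at, which can read several transcripts, and tropomyosin genes resemble each other; with such probe sets left out, TPM1 was represented by 206117_at and its direction turned. The same limit holds for TPM2, whose bright probe set is also of this kind. Without such probe sets TPM2 was represented by 227397_at, its difference went from -1.22 to -0.07, and 4 of the 10 genes rather than 5 were at least 2-fold lower. A paralog outside the group, TPM4, went from 411 to 219, and its 3 probe sets reaching the floor were all lower, by -0.48 to -0.98.

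TAGLN, transgelin, came close to the limit of 2-fold. Its brightest probe set, 1555724_s_at, went from 227 to 116, a difference of -0.97, and 205547_s_at went from 157 to 71.4, a difference of -1.13. Both point the same way, yet the third probe set, 226523_at, was identical on both arrays at 158. With probe sets ending in _s_at left out, TAGLN would thus show no difference. Such identical values occurred in 1128 of 54613 probe sets. TAGLN2, the transgelin of epithelial and blood cells, moved oppositely at both its probe sets, with 200916_at going from 4173 to 7871 and the other differing by 1.15. TAGLN3 went from 95.9 to 86.7. Of the calponins beside CNN3, CNN2 stood at 928 and 866, and CNN1, the smooth muscle calponin, at 70.2 and 59.2, close to the floor. CNN1 and CNN2 thus lay near 0, with differences of -0.25 and -0.10.

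The alpha-actinins lay on opposite sides of 0. ACTN1 was lower at all 4 of its probe sets, each by less than 2-fold. Its brightest, 208636_at, went from 2561 to 1824, a difference of -0.49, and 208637_x_at, 211160_x_at and 237401_at differed by -0.36, -0.37 and -0.14. None of the 4 differences was larger than the SD of 0.49 between probe sets. ACTN4, the alpha-actinin of motile and epithelial cells, went from 654 to 1298 at its only probe set, 200601_at, a difference of 0.99. That is the highest of the 10 genes. It lay just under the 2-fold limit and just over it when the arrays were centred on their medians, with 1 member then counted as higher.

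MYL9, the regulatory light chain of smooth muscle and stromal myosin, was barely above the floor. Its probe set 244149_at stood at 79.2 on the mock array against 87.7 after SOX2 knockdown, and 201058_s_at at 44.7 and 35.0, under the floor on both. No difference of MYL9 could be read at this level. Its paralogs of non-muscle cells were bright and close to level, MYL12A at 4050.4 and 4024 and MYL12B at 9112 and 11149.7. Smooth muscle genes were also looked at, since several of the 10 are known from that tissue. The heavy chain MYH11 stood at 107 and 106, desmin (DES) at 143 and 145, and the actin ACTA2 at 65.9 and 81.2. None of the 10 smooth muscle markers differed by 2-fold, beside 7.29% lower and 8.44% higher of all genes. Their summed intensity was 999 on the mock array against 881 after SOX2 knockdown, and the brightest reached 170.2. Of the 10 fibroblast markers 5 reached the floor on the mock array against 4 after SOX2 knockdown, with sums of 858 and 761. Among them only LUM, a matrix proteoglycan, differed by 2-fold as deposited, from 71.7 to 17.8. Its mock value was barely above the floor and the other under it, so against the floor no 2-fold difference of LUM could be read. COL1A2 and COL3A1 were under the floor on both arrays.

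Over the group, 26 of the 35 probe sets reached the floor on at least 1 array. Of these 10 were at least 2-fold lower and 0 at least 2-fold higher, beside 6.87% and 8.08% of 24617 probe sets with 1 symbol. The 10 lower probe sets came from 6 genes, 4 of them from CALD1 and 2 from CNN3. The other 9 of the 35 lay below the floor on each array, with differences from -0.61 to 0.36. Of the 10 genes 3, LCP1, PLS3 and ACTN4, had only 1 probe set.

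**Figure D2:**
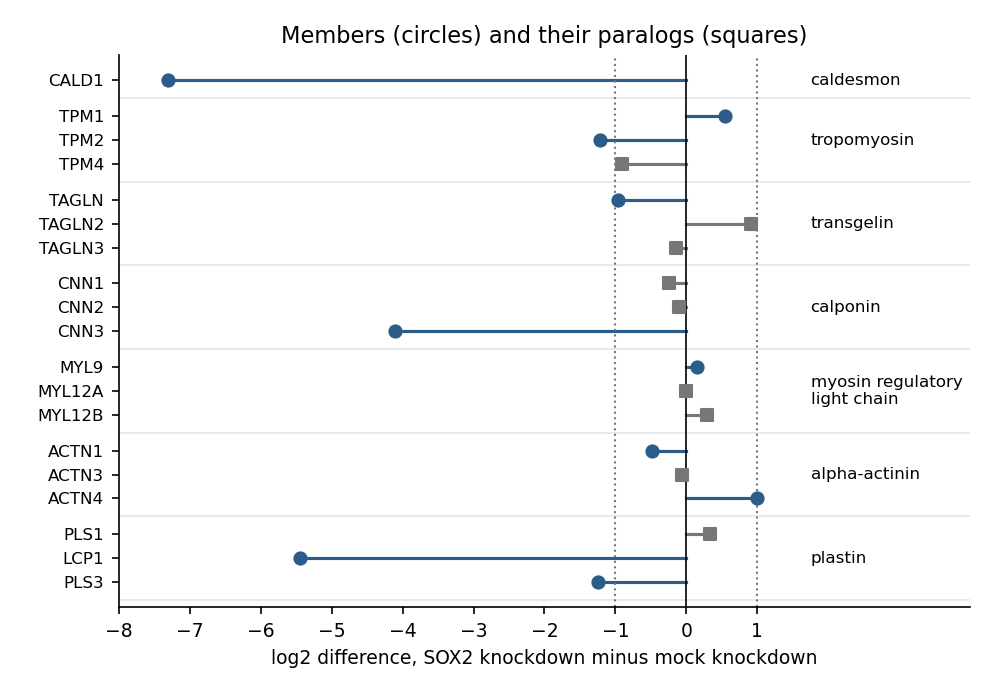
Log2 difference (SOX2 knockdown minus mock knockdown, horizontal axis) at the brightest probe set of the 10 genes (circles) and of their 9 paralogs that reached the floor (squares), grouped by protein family, with dotted lines at the 2-fold limits. No paralog passes 2-fold, beside 7.29% lower and 8.44% higher of all genes. TAGLN2 and TAGLN lie on opposite sides of 0, and so do ACTN4 and ACTN1.

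Of the families above, none of the 9 measured paralogs was at least 2-fold lower or higher at its brightest probe set. Over all genes the shares were 7.29% lower and 8.44% higher, so a count of 0 among 9 genes is not read as a result. The median of the paralogs was -0.07. Their differences ran from -0.91 for TPM4 to 0.92 for TAGLN2. The alpha-actinin ACTN3, a muscle form, stood at 74.2 and 70.8. Of the actins themselves ACTB, the main cytoplasmic actin, was close to level, at 16294 on the mock array against 15336 after SOX2 knockdown. ACTG1, the other cytoplasmic actin, had no probe set of its own. The muscle actins were dim, with ACTA1 at 124 and 121 and ACTC1 at 156 and 137, while ACTA2 and ACTG2 crossed the floor. Among the actin genes measured, 0 of 5 differed by 2-fold, which is likewise not read as a result beside the shares of all genes.

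**Figure D3:**
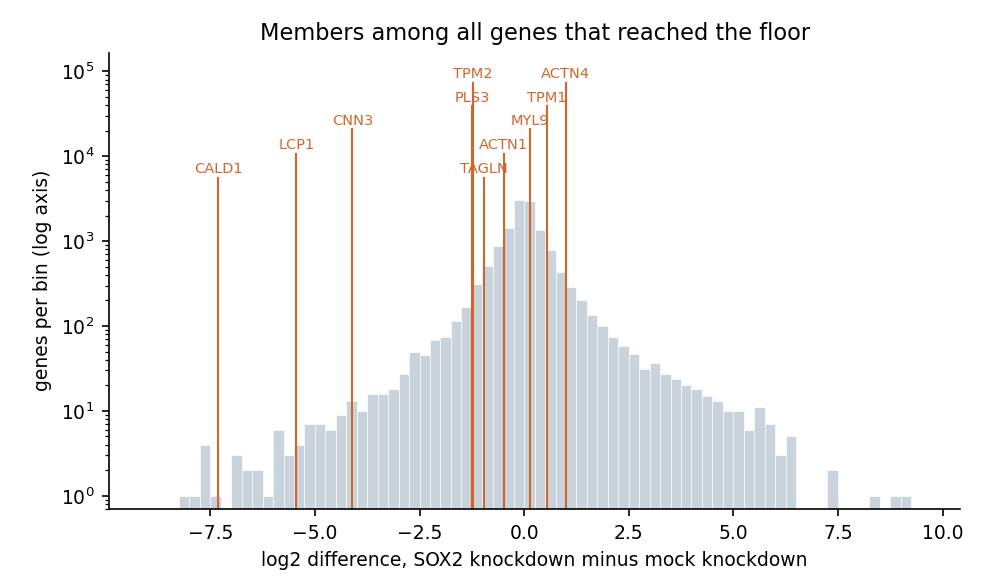
Number of genes (vertical log axis) by log2 difference, SOX2 knockdown minus mock knockdown, in bins of 0.25, as deposited, for the 13609 genes that reached the floor, with the 10 genes marked by lines; line heights only separate the labels. CALD1, LCP1 and CNN3 lie in the far left tail, PLS3, TPM2 and TAGLN near -1, and MYL9 in the centre.

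Around the 10 genes, 9 lists of the actin pathway held 127 further genes that reached the floor. Of these 14 were at least 2-fold lower and 15 at least 2-fold higher, 11% and 11.8%, beside 7.29% and 8.44% of all genes, and the median was 0.06. The pathway thus held large differences both ways with a median near 0. Among myosin II genes 2 of 14 were lower and 2 higher. MYH10, the heavy chain of myosin IIB, went from 2899 to 375, 7.74-fold lower, and the light chain MYL6B from 1491 to 680.3. MYLK, the kinase that phosphorylates the regulatory light chain, went from 84.7 to 518, 6.11-fold higher, and at its other probe set, 224823_at, it was at least 15.6-fold higher. The actin-linked kinase CDC42BPA was 2.26-fold higher at its brightest probe set, while its 4 probe sets ran from 0.14 to 1.44. The other myosin II heavy chains, named after their values were seen as was ACTB, were MYH9, from 612 to 485, and MYH14. The brightest probe set of MYH14, which the count uses, differed by 0.07, and 217660_at by -0.05. All its other probe sets reaching the floor were more than 2-fold higher. Probe set 226988_s_at went from 66.8 to 372 and 219946_x_at from 82.3 to 246. As deposited, 234290_x_at and 232977_x_at differed by 2.48 and 2.42.

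Of 16 bundling and crosslinking genes 4 were at least 2-fold lower and 3 higher. The counts of this and the following lists stand beside 7.29% lower and 8.44% higher of all genes. With so few genes per list, none is read as a result about its list. FSCN1, fascin, which bundles actin in filopodia, went from 580.1 to 99.99, and DBN1, drebrin, from 817 to 138. Higher were LIMA1, a stabiliser of epithelial actin bundles, from 801 to 2954, and PDLIM1, which binds alpha-actinin, from 945 to 2863. Of 19 nucleation genes 2 were lower and 1 higher. WASF3, an activator of the Arp2/3 complex, went from 389 to 14.0, at least 5.68-fold lower, and the formin FMNL2 from 787 to 68.8, the second value close to the floor. WASL, a further activator of Arp2/3, was 4.11-fold higher, and the Arp2/3 subunit ARPC1B differed by 0.91.

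Of 22 genes of actin turnover, severing and capping 1 was at least 2-fold lower and 3 higher. The severing protein gelsolin (GSN) went from 501 to 2749, with a difference of 0.93 at its other probe set, and the related capping protein CAPG from 418 to 1257. CAP2, which recycles actin monomers, was at least 3.36-fold lower, and profilin (PFN1) differed by -0.68.

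Of 19 focal adhesion genes 3 were at least 2-fold lower and 3 higher. FERMT2, kindlin-2, which activates integrins, was at least 6.13-fold lower at its brightest probe set, but the bounds at 214212_x_at and 209209_s_at were only 1.73-fold and 1.21-fold. TNS3, a tensin, went from 4222 to 1083. PTK2, the focal adhesion kinase, went from 846 to 3548, and TNS4, a tensin that lacks the actin-binding part, from 285 to 1036. At its other probe set, 222265_at, TNS4 differed by only 0.29. Of 12 genes that link actin to the membrane 1 was lower and 1 higher, EPB41L2 from 1185 to 134 and its relative EPB41L1 from 91.2 to 480.1. The probe sets of EPB41L1 ran from 0.55 to 2.42 as deposited. EPB41 differed by -0.83 and NF2 by 0.94. In the list of SRF, its MRTF cofactors and their textbook targets, 1 of 17 was lower and 2 higher, with a median of -0.10. The 10 genes are left out of this list, so its median does not cover any SRF targets among them. TGFB1I1 was at least 4.40-fold lower and THBS1, thrombospondin, at least 4.76-fold higher, with a bound of 2.04-fold at its dimmest probe set, 201108_s_at. FILIP1L was at least 1.59-fold higher against the floor, and vinculin (VCL) went from 2872 to 1519.6.

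**Figure D4:**
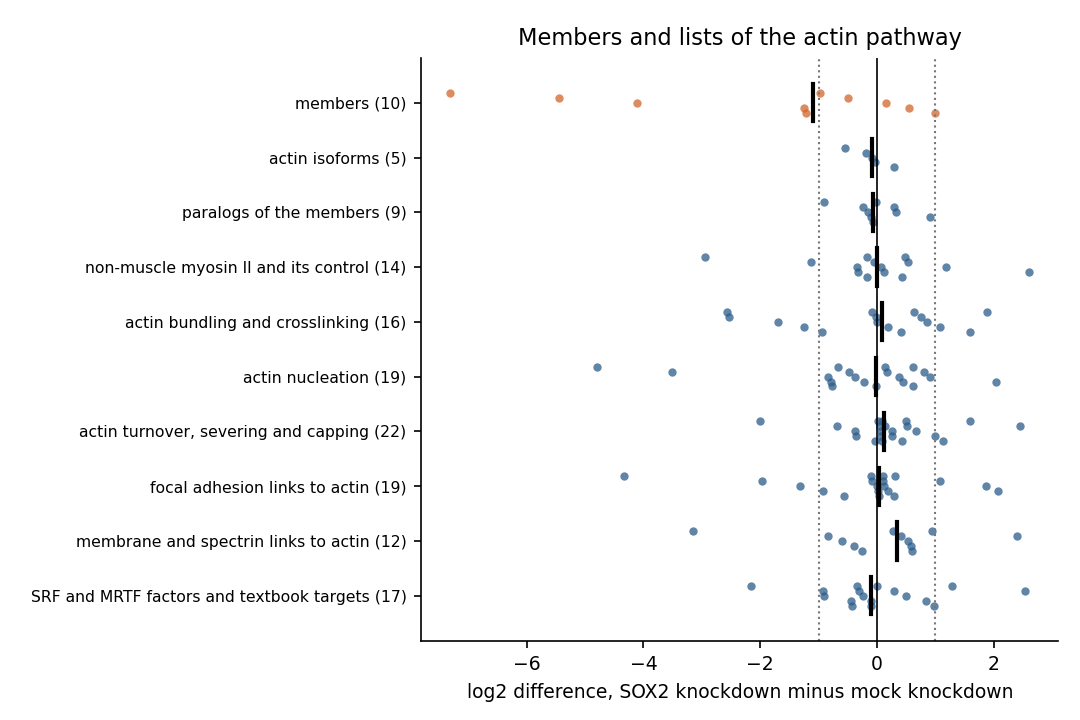
Log2 difference (SOX2 knockdown minus mock knockdown, horizontal axis) at the brightest probe set for the 10 genes (top row, "members") and for the measured genes of 9 lists of the actin pathway, 1 point per gene, with the number of genes in brackets, black bars at the medians and dotted lines at the 2-fold limits; a gene may stand on more than 1 list. The medians of the lists lie between -0.10 and 0.34, that of the 10 genes at -1.10. The 10 genes were picked with their differences known, so nothing is read from this gap.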

How the data were processed

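The authors deposited 1 intensity on a linear scale for every probe set of each array. RMA made these values, per the submitters' processing notes. RMA corrects background, normalizes quantiles between arrays and summarises probes. Not given in the sources used here are its version, its settings, the arrays it was run on together and the step back to a linear scale. Quantile normalization hides a change in total RNA per cell, and no detection calls came with the values.

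Array controls, 62 of 54675 probe sets, were left out. In GEO's platform annotation 41091 of the rest had 1 gene symbol, 1801 had several and 11721 had none, and only the first kind was named. Of these 41037 matched RefSeq (GRCh38.p14) by Entrez identifier, which changed 0 symbols. Log2 values were taken with no pseudocount. Genes entered at or above the floor, the 50th percentile, on at least 1 array, and the limit of size was 2-fold.

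No test was run, since each group had 1 array. The members and lists were chosen with earlier results of these data known, and 1 further pathway list is not reported here. Named were all members, their paralogs that reached the floor, SOX2 and, from each other pathway list, up to 2 genes in each direction with the largest difference of at least 1.5-fold whose probe sets agreed in sign. Counting was tested on simulated data. Promoter windows came from RefSeq. Alternatives covered normalization, floor, pseudocount, probe set choice and limit. Python 3.11.15, numpy 2.4.6, pandas 2.3.3, statsmodels 0.14.6 and matplotlib 3.10.9 were used.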

Additional observations from a re-analysis of the deposited data

How the results depend on the processing

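The main limit is that each group had 1 array, so no alternative adds error between cultures; low signal bounds CALD1 and LCP1 and leaves MYL9 unread. No paired analysis was possible because each group holds 1 array. The count of 5 members at least 2-fold lower was 3 with the floor required on both arrays, which left 8 members, 3 with the probe set closest to 0 and 3 at a limit of 3-fold. It ran from 3 to 6 over 13 alternatives. The count of 0 higher members became 1, ACTN4, with arrays centred on their medians, with the difference centred along mean level and at a limit of 1.5-fold, and the count of higher probe sets became 1 in the same settings. The 10 lower probe sets became 5 with the floor required on both arrays, 5 without those ending in _s_at or _x_at and 6 at 3-fold. The median of -1.10 moved to -0.10 with the probe set closest to 0 and to -0.44 without those ending in _s_at or _x_at. Pathway counts of 14 lower and 15 higher became 24 and 29 at 1.5-fold, and 9 were higher with the probe set closest to 0. The shares of all genes, 7.29% lower and 8.44% higher, were counted in the main setting only. Counts at other limits, floors or probe sets therefore have no share beside them, and nothing is read from their size. CNN3 ran from -4.11 to -3.77, ACTN1 from -0.51 to -0.14 and TPM2 from -1.24 to -0.07 over 11 alternatives each, with TPM2 at -0.07 without probe sets ending in _s_at or _x_at. PLS3, LCP1 and ACTN4 have 1 probe set, which no choice of probe set could move. CALD1 was -5.25 with values raised to the floor, -4.09 as the median of its probe sets and -0.50 at the smallest.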

Other observations

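The 10 genes lie on 10 different chromosomes, and the genes beside them were read as a further description. For each, the 10 genes on either side that reached the floor were taken in the order of RefSeq, 20 in all. Around CALD1 the neighbours had a median difference of 0.03, with 0 of 20 at least 2-fold lower. Around CNN3 the median was -0.02, also with 0 of 20 lower, and around LCP1 it was 0.11, with 2 of 20 lower. The 3 strongly lower genes thus lay among neighbours whose medians were near 0. CNN3-DT, a transcript listed next to CNN3, differed by -0.53.

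ACTN4 was the member whose neighbours moved most with it. Their median was 0.65, 4 of the 20 were higher and 1 lower by 2-fold or more, and the nearest on each side were EIF3K, a translation initiation factor subunit, at 0.66 and CAPN12, a calpain, at 1.14. A neighbour median as high was seen around 1.38% of 13119 genes with 20 such neighbours. The neighbours of ACTN1 had a median of -0.35, as low or lower around 7.87% of genes, and those of PLS3 one of -0.23. TPM1 had neighbours at 0.25 and TPM2 at 0.19, the second against the direction of the gene. The part of position along the chromosome in these differences was not tested.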
